A study of Rattus norvegicus with 3 samples.

Results

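Rab GTPases are small membrane-bound switches that mark the compartments of vesicle traffic. Their genes were followed on 3 rat arrays of isolated renal proximal tubules. The members were the probe sets annotated to exactly 1 gene whose symbol is Rab followed by a number and an optional letter, so that effectors and exchange factors stayed out. They came to 97 of 31042 probe sets and 56 of 14217 named genes. The 3 arrays form 1 group of replicates with no control: each holds total RNA of proximal tubules from male Sprague-Dawley rats of 7 to 8 weeks. Each rat received 250 units of heparin 30 min before decapitation, and its kidneys were perfused with PBS and with collagenase at 2 mg/ml. The cortex was digested for 20 min, and tubules were separated in 42.5% Percoll. The labels do not say how many animals gave a preparation or whether each had its own, so the spread between arrays may be technical.

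As background, a Rab protein binds membranes through prenyl groups, cycles between a GTP-bound and a GDP-bound state, and recruits motors and tethers when GTP is bound. Exchange factors load the GTP, GTPase activating proteins end the active state, and GDP dissociation inhibitors take the protein off the membrane. Proximal tubule cells are known for heavy apical endocytosis of filtered protein through megalin and cubilin, followed by receptor recycling and lysosomal breakdown, steps in which Rab proteins of the early, recycling and late endosome take part.

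Values are probe-set signals on the linear scale of the deposited table, given for arrays 1, 2 and 3 in that order. A mean is followed by its SD over the arrays (n = 3). A gene was represented by its probe set of highest mean signal. Probe sets differ in affinity, so a gene was read mainly against the median signal of its array (37.1, 37.4 and 34.9) and against its own values on other arrays. Percentiles and the highest or lowest signals of a list describe probe-set signals and do not order transcript abundance. No detection calls were used, and a gene below the median is not thereby shown to be silent. With 1 group and no contrast, no p-value is given. All 6 defining markers of the proximal tubule lay above the median on every array, with mean signals from 3443 to 9616. Among 18 markers of other kidney and blood cells, 10 did so too, and none of the 18 was at 0. The highest signals among them were those of Umod of the thick limb (4942 ± 656) and Cd74 of antigen-presenting cells (4263 ± 1086). Ptprc, Cd163 and Cd3d, grouped with Cd74 as markers of macrophages and lymphocytes, were below the median on every array. Their mean signals were 22.0, 7.14 and 2.69. The principal cell marker Aqp2 (4.25, 4.80 and 32.9) and the podocyte marker Nphs1 (12.9, 4.78 and 10.1) stayed below the median on all 3 arrays. Of the other collecting duct markers, Scnn1g (15.3, 23.7 and 23.8) did the same, but Atp6v1g3 (63.3, 73.0 and 106) was above it on every array. In such bulk RNA, more cells of a type and more RNA per cell cannot be told apart.

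Of the 56 Rab genes, 37 (66.1%) passed the median of every array, against 61.0% of all named genes. A further 16 (28.6%) passed it on no array, against 32.1% of all named genes, and Rab25, Rab33a and Rab43 passed it on some. By this count the family as a whole stood near the background. Above the 75th percentile of every array were 29 Rab genes (51.8%), against 36.4% of all named genes. Rab genes had several probe sets more often (48.2%, against 31.8% of all named genes), so both counts were also made by number of probe sets. Among genes with 1 probe set, 16 of 29 Rab genes (55.2%) were above the median, against 55.5% of all such genes, and 11 (37.9%) above the 75th percentile, against 31.9%. Among genes with several, 21 of 27 Rab genes (77.8%) were above the median, against 72.9%, and 18 (66.7%) above the 75th percentile, against 45.9%. Counted by probe set, 61 of 97 Rab probe sets (62.9%) were above on all arrays, against 54.5% of all 1-gene probe sets and 45.8% of all probe sets. The median Rab gene stood at percentile 65.4, 66.1 and 64.5 of all named genes on arrays 1, 2 and 3 (65.3 ± 0.822). The median of all genes is 50 by construction. The Rab percentile was not split by number of probe sets, and it was 61.1 with the mean of each gene's probe sets.

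**Figure D1:**
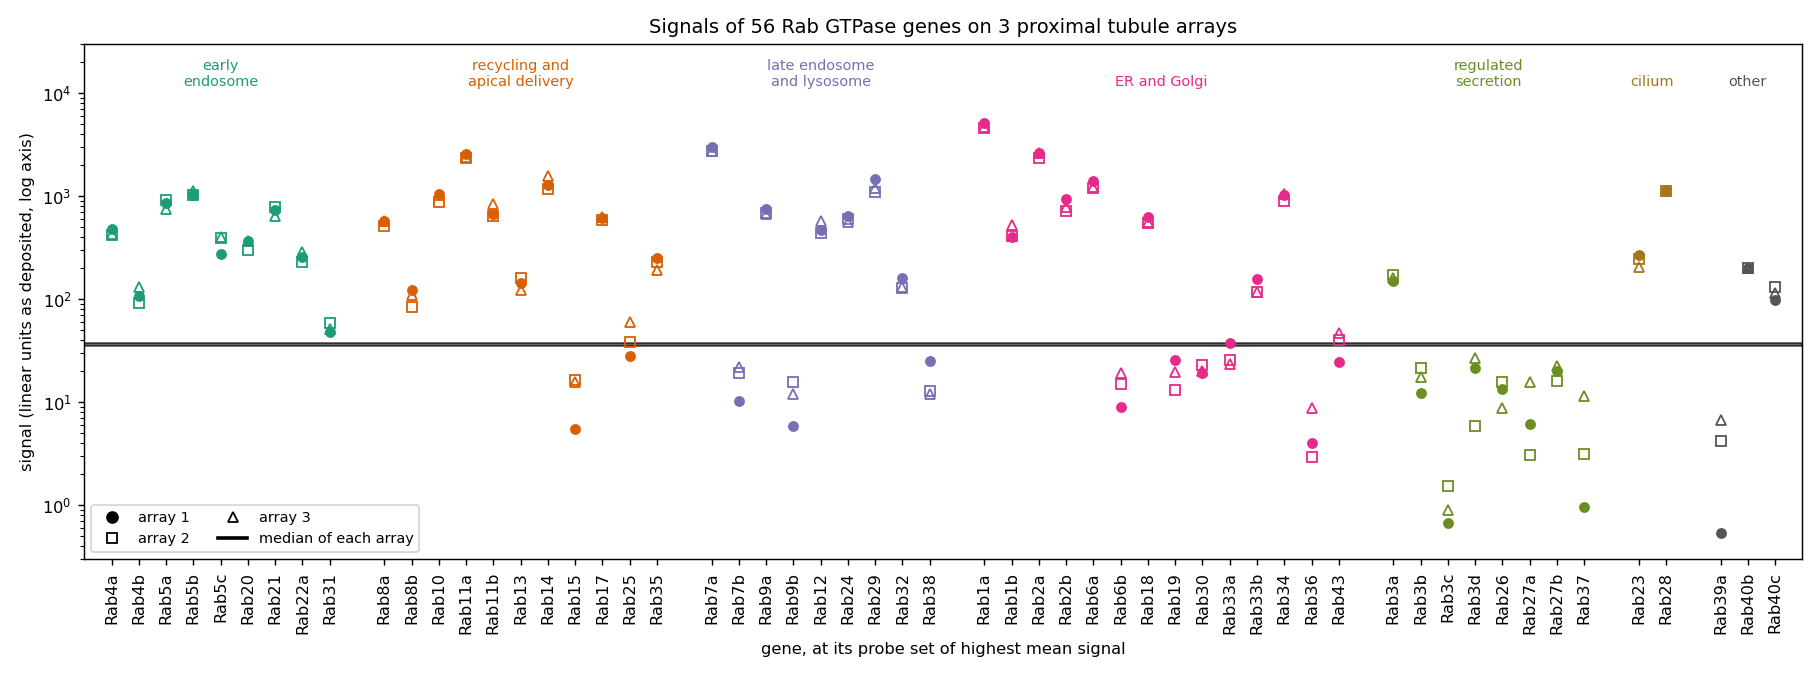
Signals of the 56 Rab genes on each of the 3 arrays (linear units as deposited, on a log axis), with genes in the order of their numbers inside 7 role groups. The black band is the array median (34.9 to 37.4). All 9 early endosome genes lie above it on every array, while 7 of 8 regulated secretion genes lie below it on every array.

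The genes were then counted by the step of traffic they are known for, beside the share of 61.0% among all named genes. All 9 early endosome genes were above the median on every array. Of the recycling and apical delivery genes it was 9 of 11. The late endosome and lysosome genes (6 of 9) and the ER and Golgi genes (8 of 14) were near the share of all genes. Of the regulated secretion genes it was 1 of 8. Both genes assigned to the cilium and 2 of 3 further genes were above as well. The groups also differ in probe sets, with 19 for the 9 early endosome genes and 12 for the 8 regulated secretion genes. Of these, 14 and 2 were above on all arrays, against 54.5% of all 1-gene probe sets. For recycling it was 18 of 24, for late endosome 8 of 12 and for ER and Golgi 15 of 23. With signals averaged within each gene, the early endosome count was 8 and the regulated secretion count 1. Counts by role were not split by number of probe sets. The groups are small, and their differences were not tested.

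**Figure D2:**
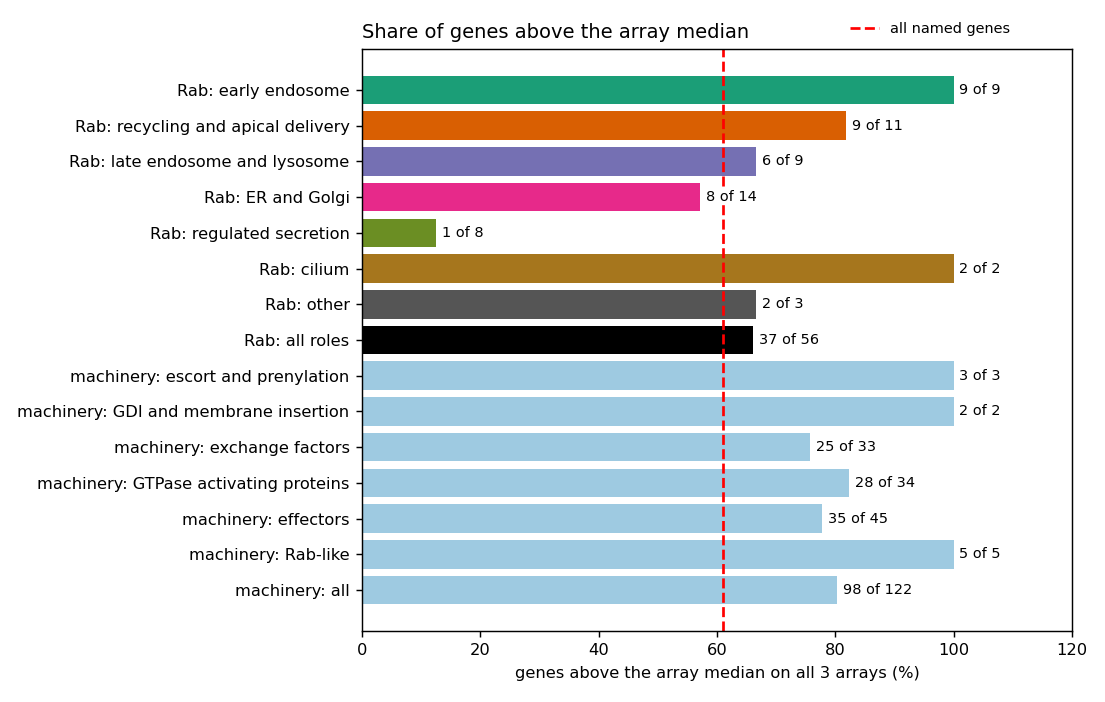
Percentage of genes above the array median on all 3 arrays, for Rab genes by role (coloured bars), for all Rab genes (black) and for classes of other genes of the Rab cycle (light blue), with counts beside the bars. The dashed line is the share of all named genes (61.0%), and the Rab bars run on both sides of it.

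The early endosome group holds the 3 isoforms of Rab5, which drive the fusion of incoming vesicles with early endosomes. Rab5a gave signals of 854, 918 and 745. Rab5b gave 1026, 1032 and 1114, and Rab5c gave 276, 390.5 and 403. All 3 isoforms therefore lay well above the median on each array, Rab5c with its lowest value on array 1. Rab21, an early endosome GTPase known for integrin uptake, gave 734, 787 and 648. Rab4a, which returns cargo quickly from early endosomes to the surface, gave 485, 424 and 433, and its paralog Rab4b gave 107, 92.7 and 132. Both isoforms of Rab4 thus passed, Rab4b without reaching the 75th percentile (181, 167 and 167). Rab20, known from phagosome maturation, gave 344 ± 39.1 and Rab22a, of early endosome sorting, gave 259 ± 30.3. Rab31, which connects the trans-Golgi with endosomes, was nearest the line of this group at 47.9, 59.3 and 51.6.

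Recycling was represented by Rab11a, the main GTPase of the recycling endosome, with signals of 2578, 2327 and 2396. Its close paralog Rab11b gave 678, 636 and 848. Rab25, the epithelial member of the Rab11 group, gave 28.2, 38.7 and 60.7. Rab11a and Rab11b lay above the 75th percentile on every array, whereas Rab25 was below the median on array 1 and above it on arrays 2 and 3. Rab17, a GTPase of polarised epithelia first described in the mouse and tied to transcytosis, gave 609.6, 586 and 631 (SD 22.6). Rab14, which moves cargo between endosomes and the Golgi, gave 1272, 1171 and 1586. Rab10, of exocytosis from the Golgi and recycling endosomes, gave 1053, 879 and 1032, and Rab8a, of the same route, gave 572, 509.7 and 578. These GTPases of delivery to the surface were high against the median on every array. Rab8b (106 ± 20.5), Rab13 of junctional traffic (142 ± 18.7) and Rab35 of rapid recycling (225 ± 30.8) lay above the median too. Rab15, studied mostly in neural cells, gave 5.51, 16.4 and 15.7 and was below it on all arrays.

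Among late endosome and lysosome genes, Rab7a, which directs late endosomes to lysosomes, gave 3034, 2726 and 2761. Rab9a, which returns mannose 6-phosphate receptors to the Golgi, gave 753, 684 and 678. Rab29, a GTPase of the trans-Golgi and lysosomes, gave 1457, 1109.8 and 1205. All 3 were above the 75th percentile on every array. Rab24, linked to autophagy, gave 601 ± 37.5, and Rab12, linked to degradation of the transferrin receptor, gave 495 ± 74.9. The paralogs of some of these genes stood on the other side of the line: Rab7b gave 10.2, 19.3 and 21.9, and Rab9b gave 5.95, 15.7 and 12.0. Rab32 and Rab38 act together in melanosomes and related lysosomes. Rab32 gave 162, 127 and 131, and Rab38 gave 25.4, 13.0 and 12.1, so that Rab32 alone of these passed the median.

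In the ER and Golgi group, Rab1a, needed for transport from the ER to the Golgi, gave 5131, 4601 and 4644. Rab1b gave 402, 409.7 and 530.1. Rab2a, of the intermediate compartment, gave 2629.8, 2368 and 2604, and Rab2b gave 937, 717 and 780.5. The isoforms of these early secretory GTPases were above the 75th percentile on all arrays. Rab6a, of retrograde Golgi traffic, gave 1397, 1193 and 1225, whereas Rab6b, its isoform enriched in neurons, gave 9.10, 15.2 and 19.2. Rab6a and Rab6b thus lay on opposite sides of the median on every array. Rab18, of the ER and lipid droplets, gave 577 ± 44.0, Rab34, of Golgi and cilium traffic, gave 992 ± 85.4 and Rab33b, a Golgi GTPase tied to autophagy, gave 131 ± 23.5. Rab33a (37.8, 25.7 and 23.5) and Rab43 (24.4, 40.4 and 47.5) crossed the median between arrays. Rab30, a Golgi GTPase (20.8 ± 1.74), Rab19 (19.6 ± 6.46) and Rab36 (5.22 ± 3.09) were below it on all arrays.

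Regulated secretion was the group with the fewest genes above the median. Rab3a, known from synaptic vesicle release, was the exception at 151, 170.3 and 160.0. Its isoform Rab3c gave 0.672, 1.53 and 0.893. Rab3b gave 12.4, 21.4 and 17.6, and Rab3d, of exocrine granules, gave 21.6, 5.92 and 27.1. Rab3b, Rab3c and Rab3d were below the median on every array. Rab27a, of melanosomes and lytic granules, gave 6.22, 3.08 and 15.8, and all 3 of its probe sets were below the median on all arrays. Rab27b (19.5 ± 3.26), Rab26 of secretory granules (12.7 ± 3.54) and Rab37 (0.962, 3.15 and 11.4) were below it as well.

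The remaining genes act elsewhere. Rab28, a ciliary GTPase, gave 1143, 1112 and 1114, and Rab23, an inhibitor of hedgehog signalling, gave 272, 246 and 207. Rab40b and Rab40c carry a SOCS box and work in ubiquitin ligases. Rab40b gave 200.1, 202 and 202, and Rab40c gave 97.3, 131 and 116. Rab39a gave 0.544, 4.19 and 6.77 and was below the median on all arrays. By their chosen probe sets, Rab28 and Rab40b had the smallest ranges between arrays of the genes above the median level, 0.07 log2 units each. The other probe set of Rab40b, at 25.1, 40.6 and 43.4, ranged over 0.60 log2 units.

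For 27 Rab genes, several probe sets allowed the same transcript to be read more than once. In 6 of them (22.2%), at least 1 probe set was above the median on all arrays and another on none, against 29.4% of all genes with several probe sets. The 6 were Rab5b, Rab8b, Rab14, Rab20, Rab23 and Rab31. Rab14 had 5 probe sets with mean signals of 1343, 609.8, 339, 91.9 and 17.2, and Rab5b had 5 with 1057, 173, 122, 24.5 and 7.57. A gene counted as above the median here could therefore have probe sets far below it. The other 21 genes included Rab7a, whose probe sets gave 2840.4 ± 168 and 903 ± 123, and Rab17, whose 3 probe sets gave 609 ± 22.6, 448 ± 43.0 and 409.8 ± 26.7. Among the genes below the line, Rab6b, Rab7b, Rab15, Rab27a, Rab27b and Rab30 had no probe set above the median on any array.

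**Figure D3:**
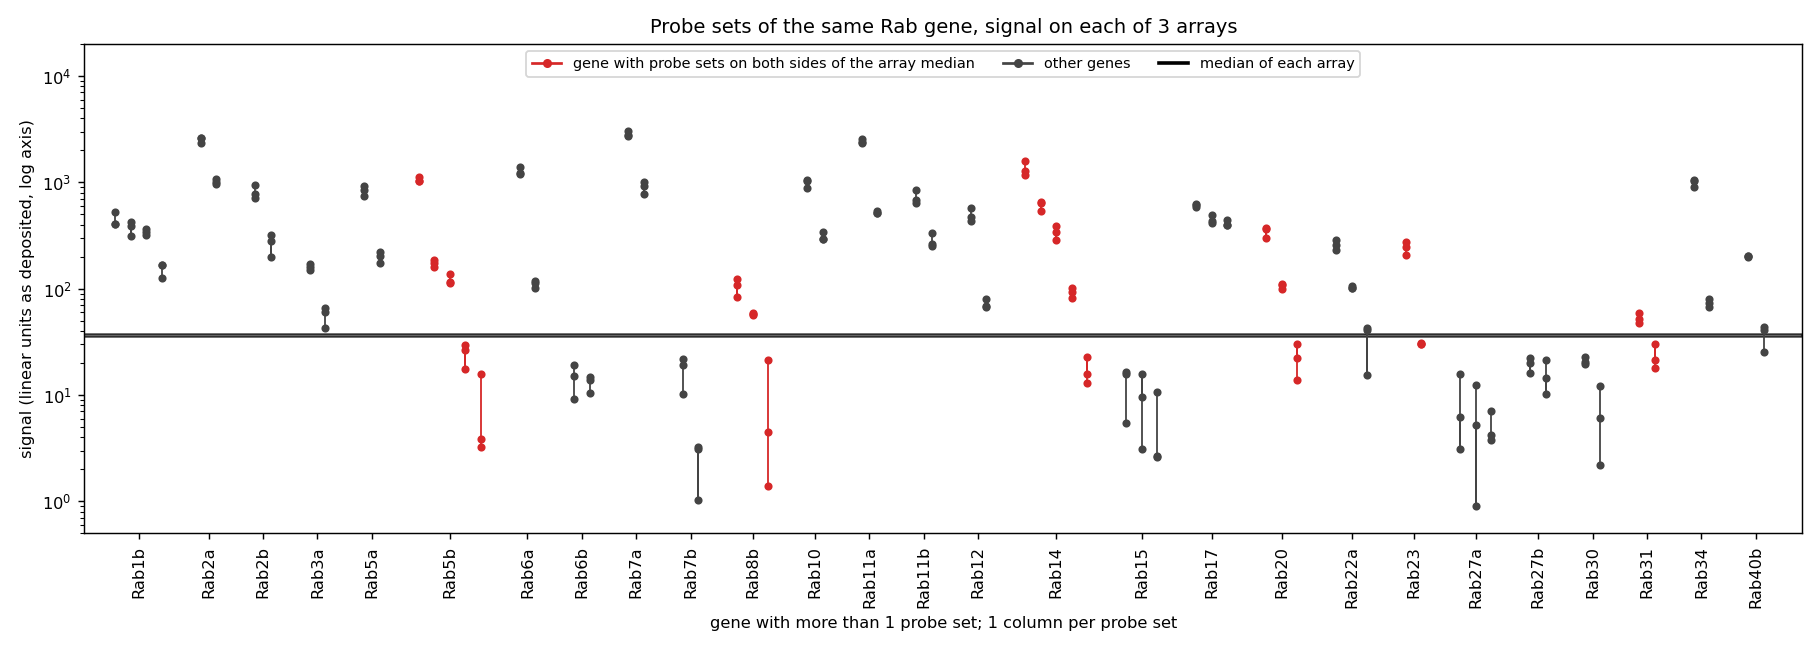
Signals on each of the 3 arrays (linear units as deposited, log axis) for every probe set of the 27 Rab genes that have more than 1, with 1 column of 3 points per probe set. Red marks the 6 genes with probe sets on both sides of the array median (black band), among them Rab14 and Rab5b with 5 probe sets each.

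The 3 arrays were next compared for these genes, on the log2(signal + 16) scale centred on each array's median. Of 36 Rab genes above the median level of all genes, 0 ranged 2-fold or more over the arrays, against 1.39% of all named genes above that level. Of the 61 Rab probe sets above every median, 0 did so, against 1.41% of all such 1-gene probe sets. Both shares are too low to tell sets of 36 genes or 61 probe sets apart from the background. The median SD over arrays was 0.15 log2 units for Rab genes and 0.15 for all named genes above the level, so the spread was of the same size. The widest range was that of Rab5c at 0.59 log2 units, with its low value on array 1. Rab4b (0.51), Rab14 (0.50), Rab8b (0.50), Rab11b (0.48), Rab12 (0.47) and Rab1b (0.45) followed. By their chosen probe sets, Rab5c, Rab4b, Rab14, Rab11b, Rab12 and Rab1b had their highest value on array 3, Rab8b on array 1. Another probe set above every median was highest on array 1 for Rab12 (80.8, 66.9 and 68.5) and Rab14 (391, 285 and 342). The same held for Rab1b (361, 322 and 340), while a second Rab8b probe set was highest on array 2 (57.5, 59.5 and 57.0). Further probe sets above every median were highest on array 3 for Rab1b (386, 309 and 420, and 126, 167.0 and 167.6). For Rab14, a further one was highest on array 3 (643, 533 and 653) and another on array 2 (92.1, 102 and 81.2).

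Deviations from a gene's mean over the arrays were above 0 for 24 of 36 Rab genes on array 1, 8 on array 2 and 24 on array 3. For all named genes above the level, the share was 70.5%, 24.6% and 54.5%, so low values on array 2 were general with centring on the median. With quantile normalization the median deviation on array 2 changed sign, to 0.018 log2 units over all 56 Rab genes, against -0.09 with centring. That on array 1 changed sign too, to -0.057, against 0.007 with centring. The median deviation of the 36 Rab genes was 0.03, -0.10 and 0.04 log2 units, against 0.07, -0.08 and 0.01 for all named genes above the level. Summed signals of the 6 proximal tubule markers were 37307, 32642 and 35378, and those of the 18 other markers 13947, 10534 and 13605, lowest on array 2 as well. Most of the latter sum came from Umod (5474, 4209 and 5143) and Cd74 (4952, 3011 and 4827). The rest of the 18 were divided in their lowest array. Slc12a3 was lowest on array 2 (595, 587 and 797) and Kdr on array 1 (232, 234 and 341). Slc12a1 was lowest on array 3 (2065, 1814 and 1550). Most of the 18 were highest on array 3, among them the collecting duct and endothelial markers. The exceptions were Umod, Slc12a1, Cd74, Nphs1 and Hbb, highest on array 1, and Acta2, highest on array 2. The endothelial markers Pecam1 and Plvap gave 42.8, 74.2 and 137, and 185, 286 and 396.5. For beta-actin, the 3' control probe set divided by its 5' partner gave 3.85, 3.28 and 3.66, and for GAPDH the same ratio was 1.52, 1.52 and 1.40, lowest on array 3. The part of cell makeup or RNA quality in these differences was not tested.

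**Figure D4:**
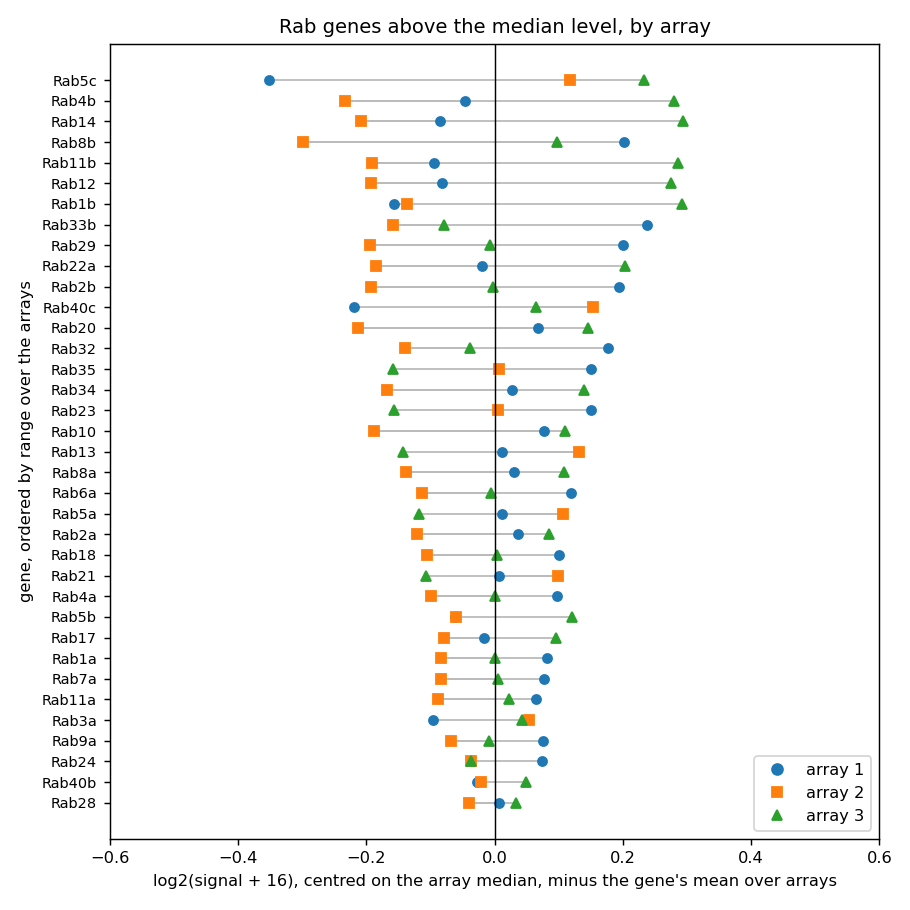
Deviation of each of the 36 Rab genes above the median level from its mean over the arrays, in log2 units of signal + 16 centred on the array median, with 1 symbol per array. Genes are ordered by their range, from 0.07 for Rab28 to 0.59 for Rab5c, and array 2 (orange squares) lies left of 0 for 28 of 36 genes with this centring, a direction that quantile normalization turned for the median of all Rab genes (0.018).

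Probe sets of the same gene gave a further reading of the arrays. Rab11b was highest on array 3 by both of its probe sets, with 678, 636 and 848 for the first and 262, 252 and 334 for the second. Rab7a and Rab2b were highest on array 1 and lowest on array 2 by both of theirs. Of 14 Rab genes with exactly 2 probe sets above the median on all arrays, 6 (42.9%) shared the highest array, against 52.3% of all such genes. The lowest array was shared by 6 as well (42.9%), against 49.5%. The other genes did not share it, so the order of the arrays was often not the same by a second probe set.

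Genes that serve the Rab cycle were counted in the same way, from a list of exchange factors, GTPase activating proteins, effectors and carriers. The list also held Rab-like genes, which are not part of that cycle but are in its counts. Of 122 measured, 98 (80.3%) were above the median on all arrays, against 61.0% of all named genes. The list was made with earlier results of these data known, and its count was not split by number of probe sets. Of the 79 above the median level, 0 ranged 2-fold or more, against 1.39% of all named genes above it. That share is too low to tell the 79 apart. Above the 75th percentile of every array were 45.9%, against 36.4%. By class, the 98 were 3 of 3 for escort and prenylation, 2 of 2 for GDP dissociation inhibitors and membrane insertion, 25 of 33 for exchange factors, 28 of 34 for GTPase activating proteins, 35 of 45 for effectors and 5 of 5 for Rab-like genes.

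Among the carriers, Gdi2, which extracts GDP-bound Rab proteins from membranes, gave 5401, 4541 and 4864, and Rabac1, a prenylated Rab acceptor, gave 1148, 963 and 1194. Rabggtb and Rabggta, the subunits of the Rab prenylating enzyme, gave 857 ± 115 and 130.4 ± 23.0, and the escort protein gene Chm gave 67.9 ± 2.81. Rin2, an exchange factor of Rab5, gave 2003, 1113 and 1328, with its high value on array 1. Ccz1, part of the exchange factor of Rab7, gave 811 ± 61.4, Dennd3, that of Rab12, gave 679.9 ± 63.8 and Dennd1c gave 3.20 ± 0.614.

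Among the GTPase activating proteins, Evi5 gave 989, 1039 and 968, Tbc1d13, which acts on Rab35, gave 851 ± 66.9, Tbc1d14 gave 702 ± 145 and Tbc1d30 gave 2.70 ± 0.721. Of the effectors, Rab11fip3, which binds Rab11, gave 1422, 1485 and 1362. Vps41, of the tether that joins late endosomes to lysosomes, gave 1223, 1041 and 1020.2, and Inpp5b, a phosphoinositide phosphatase, gave 842 ± 88.2. Mical1, an actin-oxidising enzyme, gave 1.86 ± 0.711.

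Promoter sequence was examined as a feature that the choice of genes had not used. RefSeq promoters of the GRCr8 assembly were matched for 45 of the 56 Rab genes, and the 250 bases before the annotated start were read on the gene's strand. Those without an entry were Rab1b, Rab2a, Rab2b, Rab22a, Rab23, Rab24, Rab26, Rab33a, Rab36, Rab37 and Rab38. The median number of CpG dinucleotides was 17 in the 45, against 15 in all named genes. The GC content was 62.8%, against 59.2%, and the ratio of observed to expected CpG was 0.684, against 0.695, so the higher CpG count went with higher GC content and not with a higher ratio. It was 18 in the 31 Rab genes above the median of every array and 12 in the 12 above on none. For all named genes the same medians were 17 and 7. At least 10 CpG were present in 28 of 31 Rab promoters of the first kind (90.3%) and 9 of 12 of the second, against 79.4% and 42.7% for all named genes.

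The promoters of 5 genes are printed to show CpG-rich and CpG-poor examples on both sides of the median. Rab5a and Rab3d are rich in CpG, and Rab17 and Rab3b are poor in it. In each case the first gene named lay above and the second below the median of every array. Rab7a stands between them. They are the 250 bases before the start, 5′ to 3′, with CpG in capitals: Rab5a has 26 (GRCr8 chr9:6720877-6721126, plus strand), Rab17 has 6 (chr9:99014033-99014282, minus strand), Rab7a has 19 (chr4:122064186-122064435, minus strand), Rab3d has 25 (chr8:28725268-28725517, minus strand) and Rab3b has 9 (chr5:128858841-128859090, plus strand).
Rab5a: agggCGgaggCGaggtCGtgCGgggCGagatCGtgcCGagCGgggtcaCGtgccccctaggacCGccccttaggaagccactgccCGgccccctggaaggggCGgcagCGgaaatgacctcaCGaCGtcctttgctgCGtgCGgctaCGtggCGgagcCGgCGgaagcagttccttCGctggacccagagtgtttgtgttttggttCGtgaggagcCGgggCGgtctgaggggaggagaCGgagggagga
Rab17: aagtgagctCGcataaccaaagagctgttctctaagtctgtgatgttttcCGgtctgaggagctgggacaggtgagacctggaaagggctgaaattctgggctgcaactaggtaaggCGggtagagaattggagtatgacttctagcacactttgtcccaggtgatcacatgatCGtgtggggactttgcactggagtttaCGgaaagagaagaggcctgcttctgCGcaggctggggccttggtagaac
Rab7a: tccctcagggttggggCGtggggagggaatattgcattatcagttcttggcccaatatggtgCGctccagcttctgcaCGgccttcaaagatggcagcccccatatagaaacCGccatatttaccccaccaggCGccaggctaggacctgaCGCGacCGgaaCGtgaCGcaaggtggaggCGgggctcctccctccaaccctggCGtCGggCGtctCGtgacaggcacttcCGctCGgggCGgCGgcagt
Rab3d: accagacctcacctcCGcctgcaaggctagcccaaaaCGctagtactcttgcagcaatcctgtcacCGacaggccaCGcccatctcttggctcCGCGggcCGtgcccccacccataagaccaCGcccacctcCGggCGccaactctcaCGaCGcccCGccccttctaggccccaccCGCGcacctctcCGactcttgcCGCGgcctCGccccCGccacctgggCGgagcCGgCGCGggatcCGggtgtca
Rab3b: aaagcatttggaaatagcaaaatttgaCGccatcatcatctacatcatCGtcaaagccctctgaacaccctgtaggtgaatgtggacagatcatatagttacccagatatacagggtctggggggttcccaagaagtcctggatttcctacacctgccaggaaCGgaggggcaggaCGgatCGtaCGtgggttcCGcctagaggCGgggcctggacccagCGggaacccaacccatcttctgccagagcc

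With 20 or more CpG, 13 of 16 Rab genes (81.2%) were above the median on all arrays, against 74.8% of all named genes of that kind. With 10 to 19 it was 15 of 22 (68.2%), against 73.6%, and with fewer than 10 it was 3 of 7 (42.9%), against 39.5%. The 3 were Rab14 with 3 CpG, Rab17 with 6 and Rab29 with 9. The shares of Rab genes thus followed those of all genes within small counts.

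**Figure D5:**
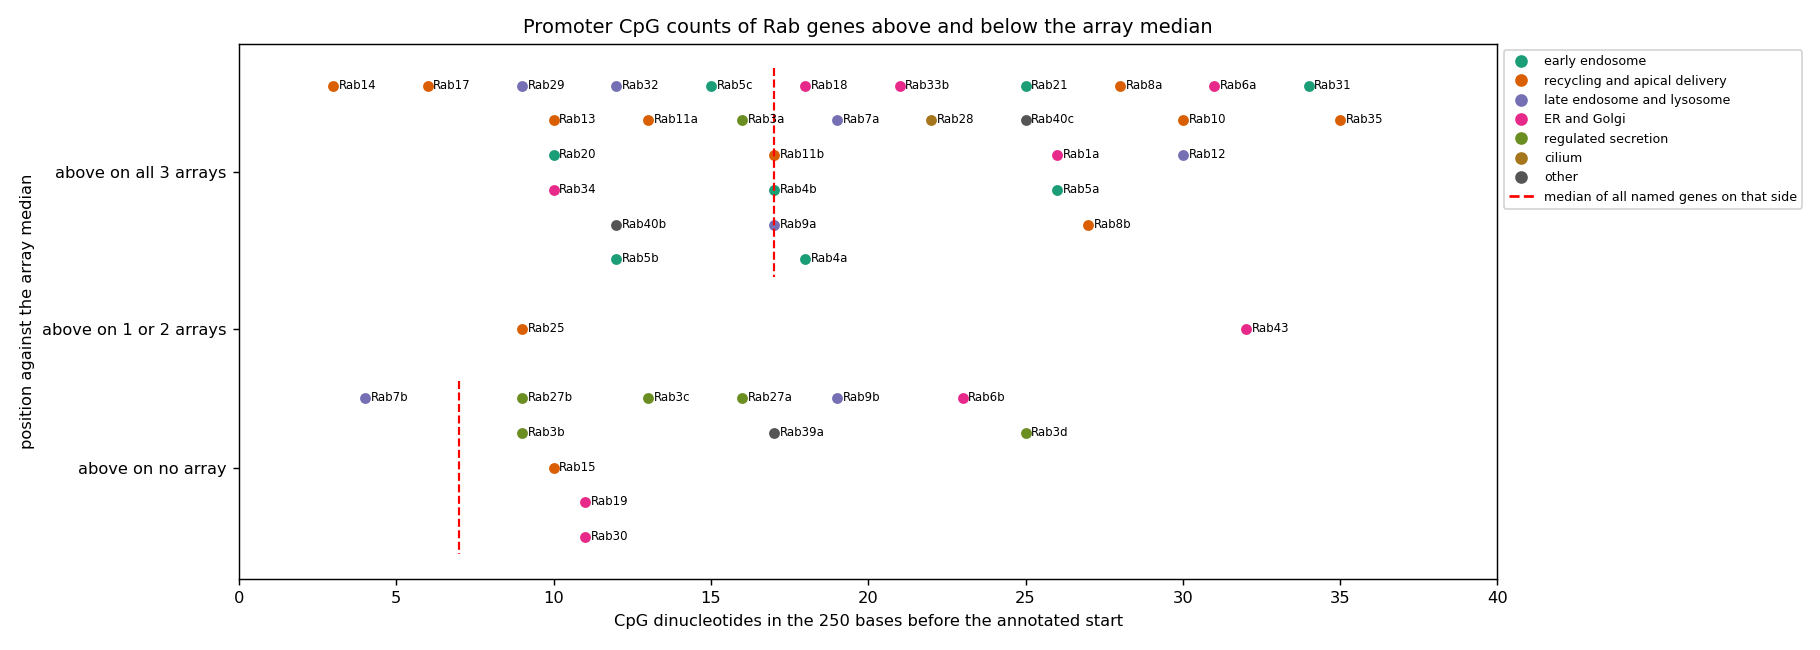
Number of CpG dinucleotides in the 250 bases before the annotated start for 45 Rab genes, in rows by position against the array median (all 3 arrays, some, none) and coloured by role. Red dashed lines are the medians of all named genes on the same side (17 and 7), and the rows of Rab genes overlap over most of their range.

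Short motifs were searched in the same windows on both strands. GGGCGG, the GC box, was present in 35 of 45 Rab promoters (77.8%), against 54.2% of promoters of all named genes. CCAAT was present in 15 (33.3%), against 35.1%, and 14 of the 15 belonged to genes above the median of every array. Among promoters of genes above and below the median, CCAAT occurred in 14 of 31 and 1 of 12 Rab genes, against 36.5% and 32.8% of all named genes. The 1 gene below was Rab30. TATAAA was found in 0 of 45, against 8.06% of named genes. CACGTG was found in 3 (6.67%), against 7.85%, in Rab5a, Rab21 and Rab31. The CLEAR element, a longer palindrome that contains it, was found in Rab21 alone, against 0.436% of named genes. CCGGAAG (2 genes, 4.44%), TGANTCA (4, 8.89%), TGACGTCA (1, 2.22%) and the NRF1 palindrome (1, 2.22%) were each in few Rab promoters. CAAAGTCCA and the HNF1 palindrome were not matched in any of the 45. In the order named, these motifs occurred in 12.9%, 4.83%, 2.64%, 1.47%, 0.333% and 0.00855% of named gene promoters. A match describes letters and does not show that a factor binds.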

How the data were processed

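Tubule RNA was hybridised as biotin-labelled cRNA to 3 Affymetrix arrays. The authors deposited 1 linear signal intensity per probe set and array. The summarisation software and scaling are not given in the sources used here, so values were taken as deposited. Of 31099 probe sets, 57 controls were left out, and of the rest 20826 carried 1 gene symbol in the platform annotation, 436 several and 9780 none. All 56 Rab symbols matched the RefSeq GRCr8 table by gene identifier, unchanged. A gene took its probe set of highest mean signal. For comparisons between arrays, values were log2(signal + 16) minus the array median, and genes above the median of all gene means were kept. No test was run, since the arrays form 1 group; their number limits the precision of every value. The rule for counting wide ranges was checked on simulated data with a smaller spread than these arrays, which does not measure the precision of the counts. Alternatives were other probe-set rules, lines, pseudocounts, scalings, filters and each array left out. All Rab genes could be named, and of each class of the Rab cycle list the 3 members of highest mean signal and the lowest. Members and lists were chosen with earlier results of these data known. Rab30 has 2 promoter entries, of which the first was used. Python 3.11.15, numpy 2.4.6, pandas 2.3.3 and matplotlib 3.10.9 were used.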

Additional observations from a re-analysis of the deposited data

How the results depend on the processing

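The count of Rab genes above the line (37) ran from 29 to 46 over its alternatives, highest at the 25th and lowest at the 75th percentile, and was 37 to 39 with an array left out. The count for the Rab cycle genes fell to 56 at the 75th percentile. For regulated secretion genes it was 3 at the 25th and 0 at the 75th percentile; the alternatives by role were chosen after seeing the data. Genes with probe sets on both sides numbered 1 at the 25th percentile. Without a filter on low values, 1 Rab gene (Rab3d) ranged 2-fold or more, as the filter had removed it. The median SD of Rab genes was 0.12 log2 units with pseudocount 64, 0.12 with quantile normalization, 0.13 with the mean of probe sets, 0.18 without the filter and 0.090 to 0.13 with an array left out. The median percentile was 61.1 with the mean of probe sets, 64.4 with probe sets without a suffix and 68.5 without the lowest 20% of genes. The median deviation of Rab genes on array 2 was 0.018 with quantile normalization, against -0.09, and the cause was not tested. The other 97 of 113 alternative values stayed within the limits set (counts within 1.5 times, other values within 1 SD). Among these, the median deviation on array 1 still changed sign with quantile normalization, from 0.007 to -0.057. Many of the 97 had little room to move, so their number does not measure stability. Quantile normalization keeps the ranks within an array, so counts above a line could hardly change. Leaving an array out can raise such counts but hardly lower them, and it can hardly widen a range. No paired analysis was possible because the arrays form 1 group. Depth has no direct measure here, and signal over background was not available.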

Other observations

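The annotation assigned 3 probe sets to Rab1a and Rab1b together, which the choice of members left out. Their signals on arrays 1, 2 and 3 were 168, 218 and 198 for the first, 131, 163 and 163 for the second and 5.10, 8.99 and 3.66 for the third. Both isoforms drive transport from the ER to the Golgi, and these values cannot be divided between them. Rab-like genes, which lack parts of the Rab pattern, also passed the median of every array in 5 of 5 cases. Among them, Rabl2 gave 229, 187 and 181 and Ift27, a subunit of the transport complex of cilia, gave 130.3, 114 and 119.9. Rabl6 gave 138 ± 20.1 and Ift22 gave 60.0 ± 6.86.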
